A study of Mus musculus with 12 samples.

Results

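The oxytocin, vasopressin, TRH and GRP systems are 4 neuropeptide systems, each made of a peptide gene and its receptor genes. The 9 genes were Oxt, Avp, Trh and Grp, which encode the peptide precursors, and Oxtr, Avpr1a, Avpr1b, Trhr and Grpr, which encode their receptors. They were found by gene symbol in the deposited annotation, and they hold 13 of the 45037 probe sets that are not controls, or 9 of 20752 genes with a symbol of their own. RNA came from the basolateral amygdala (BLA) of mice, a region that takes part in learning about aversive and rewarding events. Mice of the shock group had been given footshocks, and mice of the female group had been exposed to a female mouse. In both groups the RNA-binding protein PABPC1 with a FLAG tag was made in the BLA under the fos promoter, which turns on in active neurons, and the RNA bound to it was pulled down with the tag. The RNA therefore came from cells in which that promoter had driven the tagged protein, and both groups carry it. Each group had 3 Affymetrix Mouse 430 2.0 arrays with RNA pooled from 2 mice per sample. The design note gives 3 mice per group, so whether arrays of a group share mice is not settled, and the tests measure the spread between arrays. Strain, age and sex are not named in the labels, and there is no group without a stimulus.

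Oxytocin and vasopressin are closely related peptides that are best known from large neurons of the hypothalamus, which send them to the pituitary and into the brain. Vasopressin is also made by neurons of the extended amygdala in mice. Thyrotropin-releasing hormone (TRH) drives the thyroid axis from the hypothalamus and is also made elsewhere in the forebrain. Gastrin-releasing peptide (GRP) is a bombesin-like peptide that excitatory neurons of the mouse lateral amygdala make, and its receptor has been studied there in inhibitory neurons during fear learning. The receptors of all 4 peptides listed here signal mainly through G proteins of the Gq/11 class, which activate phospholipase C.

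The RNA of all 6 arrays was rich in neuronal transcripts. Snap25, which encodes a synaptic vesicle fusion protein, averaged 13.68 in shock and 13.58 in female (RMA, log2). Of 5 neuronal markers none was called higher in shock and 2 were lower, Tubb3 at -0.77 (limma adjusted p = 0.00732) and Stmn2 at -0.42 (0.0316). Of 9 markers of inhibitory neurons 2 were higher, Vip at 0.86 (0.0184) and Gad1 at 0.39 (0.0306), and 1 was lower, Pvalb at -0.69 (0.0163). Among all tested genes 10.6% were called higher in shock and 9.40% lower, and these counts rest on few markers. RMA is a normalized log2 probe signal, and MAS5, the other deposited processing, is a linear intensity. Female replicate 2 stood apart. Across all probe sets its RMA values correlated at 0.990 and 0.991 with the other female arrays, which correlated at 0.997 with each other, and its MAS5 intensities had a lower quartile of 55.7, against 38.6 to 45.3 on the other 5 arrays. Fos, the gene whose promoter drove the reporter, stood at 0.36 (shock minus female, limma adjusted p = 0.0844) and Pabpc1 at 0.18 (0.513), and neither was called. In tissue of mixed cells, fewer cells of a type and less RNA per cell cannot be told apart.

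Among these systems the precursors of oxytocin and vasopressin were called lower in shock than in female. The TRH receptor was called higher in shock at 1 of its 2 tested probe sets, and the other was at -0.14. With 1 array left out, Oxt was called in 1 of 6 fits, and Avp and Trhr in 4 of 6 each. On MAS5 values, as log2(value + 16), Avp was called and Oxt and Trhr were not. The precursors of TRH and GRP and the oxytocin receptor did not pass the test. The vasopressin receptors and the GRP receptor were too dim to be tested. A probe set was tested where its mean RMA value over the 6 arrays lay above 6.31, the 40th percentile, and called where the limma adjusted p over all 27022 tested probe sets was under 0.05. Of the 13 probe sets 8 were tested, and of the 9 genes 6, each represented by its brightest probe set (highest mean). Of these 6 genes 3 were called, 1 higher and 2 lower in shock. Across all 13203 tested genes 20.0% were called, 10.6% higher in shock and 9.40% lower, and across all tested probe sets 20.8%. The count of 3 rests on few genes, and no test sets it apart from that background.

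**Figure D1:**
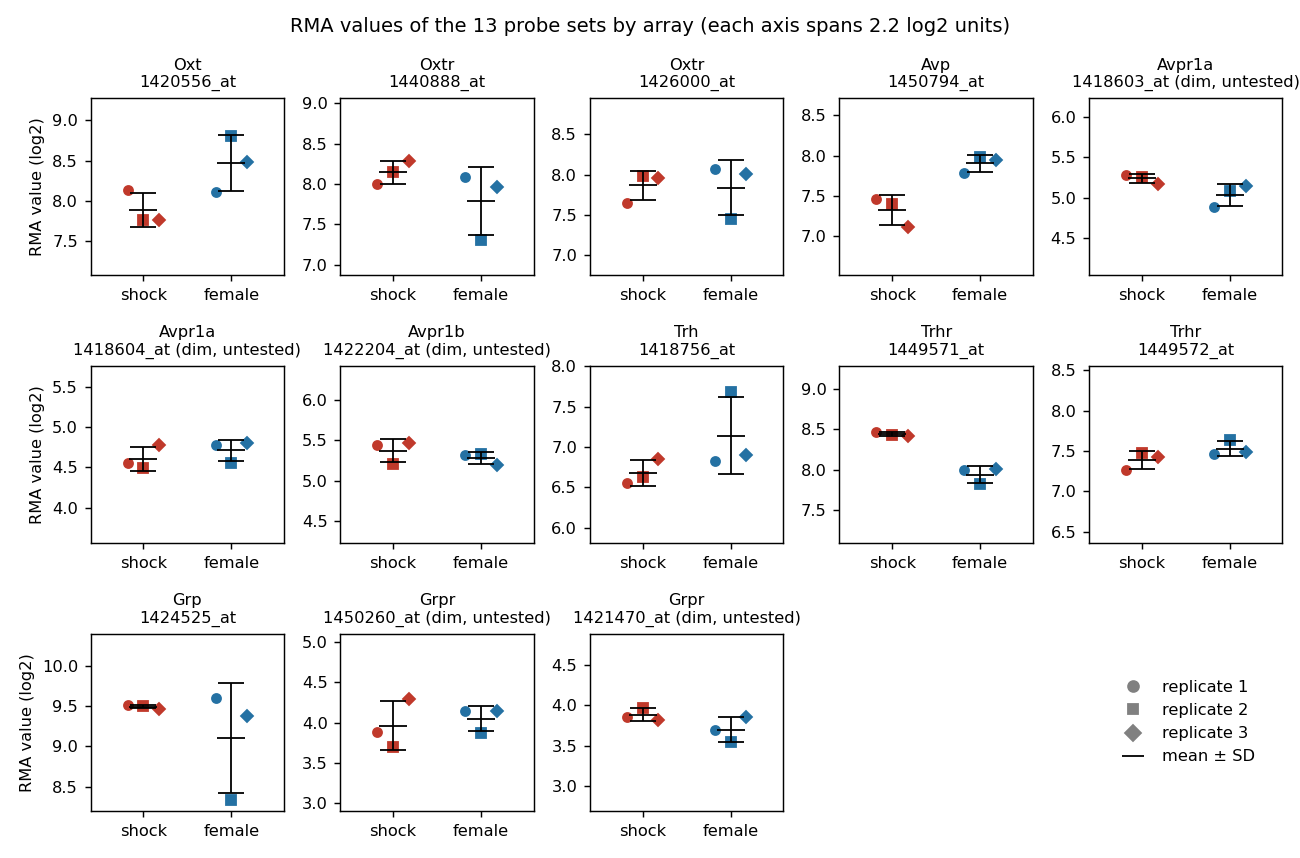
Each panel plots the RMA value (log2) of 1 probe set on the 3 shock arrays (red) and the 3 female arrays (blue), with the mean and SD in black. Avp lies between 7.12 and 7.46 in shock and between 7.79 and 7.98 in female, and Trhr at 1449571_at between 8.42 and 8.47 in shock and between 7.82 and 8.004 in female, whereas Grp differs mainly by female replicate 2 at 8.33.

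Avp encodes the precursor of vasopressin and its carrier protein, neurophysin. Its RMA values were 7.46, 7.40 and 7.12 in shock replicates 1, 2 and 3, against 7.79, 7.98 and 7.95 in female replicates 1, 2 and 3. Every shock array lay below every female array, a separation of the groups that 48.7% of tested genes had in one direction or the other. The means were 7.32 ± 0.18 in shock and 7.91 ± 0.10 in female (SD, n = 3), a log2 difference of -0.58 (SE 0.12, 95% confidence interval from -0.85 to -0.32, limma adjusted p = 0.0141). The female mean was 1.5-fold the shock mean on this scale.

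The MAS5 intensity of Avp showed a wider gap between the groups. It was 104, 126 and 77.8 in shock replicates 1, 2 and 3, against 245, 328 and 186 in female replicates 1, 2 and 3. The ranges were again apart, as they were in 31.1% of tested genes. On log2(MAS5 + 16) the difference was -1.17 (SE 0.22, limma adjusted p = 0.0414), where 2.01% of tested probe sets were called. With a pseudocount of 1 in place of 16 it was -1.28 and was not called (adjusted p = 0.0567). In the authors' deposited tables, whose fold is female against shock, Avp stood at a fold of 1.46 (FDR 0.150) on RMA values and of 2.42 (FDR 0.294) on MAS5 values. No probe set in either of the authors' deposited tables had an FDR under 0.05, the lowest being 0.0810 on RMA and 0.147 on MAS5 values.

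Oxt encodes the precursor of oxytocin, likewise with a neurophysin. Its RMA values were 8.14, 7.76 and 7.77 in shock replicates 1, 2 and 3, against 8.11, 8.80 and 8.49 in female replicates 1, 2 and 3. The groups overlapped, since shock replicate 1 lay just above female replicate 1, and the other shock arrays lay below all female arrays. The means were 7.89 ± 0.21 in shock and 8.47 ± 0.35 in female (SD, n = 3), a log2 difference of -0.58 (SE 0.17, 95% confidence interval from -0.97 to -0.19, limma adjusted p = 0.0424). The MAS5 intensity was 303, 247 and 142 in shock, against 332, 432 and 337 in female. The groups did not overlap there, as in 31.1% of tested genes, and the difference on log2(MAS5 + 16) was -0.69 with an adjusted p of 0.166. In the authors' deposited table of RMA values, the fold of Oxt for female against shock was 1.64 (FDR 0.253).

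The 2 differences were not equally steady. With 1 array left out in turn, the Avp difference lay between -0.65 and -0.48 and was called in 4 of 6 fits, with adjusted p of 0.0552 without shock replicate 1 and 0.0568 without shock replicate 3. The Oxt difference lay between -0.76 and -0.41 and was called in 1 of 6 fits, the one without female replicate 1, while leaving out any of the other 5 arrays gave an adjusted p between 0.0597 and 0.136. Without female replicate 2 the difference was -0.41 (adjusted p = 0.0597) at Oxt and -0.55 (adjusted p = 0.0109) at Avp. Without a filter on dim probe sets Oxt had an adjusted p of 0.0580 and Avp of 0.0191.

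Oxt and Avp are neighbours in the mouse genome and are transcribed towards each other. In the deposited annotation, which names no genome build, Oxt lies on chromosome 2 from 130576172 to 130577055 on the plus strand and Avp on the same chromosome from 130580619 to 130582588 on the minus strand, so that 3564 bases separate their 3′ ends. Because both genes were called lower in shock, their promoters are shown, from 250 bases before to 50 bases after the start of the gene, from RefSeq on build GRCm38.p6. The table holds promoters for 6 of the 9 genes. Capitals mark TGACC, the half-site of several nuclear receptors, on either strand, and CACGTG, an E-box that the circadian factors CLOCK and BMAL1 bind.
Oxt, chr2:130575919-130576218, plus strand: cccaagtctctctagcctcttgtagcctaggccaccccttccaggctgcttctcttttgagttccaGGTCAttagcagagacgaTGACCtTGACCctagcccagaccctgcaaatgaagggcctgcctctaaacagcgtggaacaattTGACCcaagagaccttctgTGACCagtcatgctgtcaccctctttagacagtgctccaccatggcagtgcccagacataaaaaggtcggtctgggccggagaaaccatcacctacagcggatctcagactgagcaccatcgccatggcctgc
Avp, chr2:130582539-130582838, minus strand: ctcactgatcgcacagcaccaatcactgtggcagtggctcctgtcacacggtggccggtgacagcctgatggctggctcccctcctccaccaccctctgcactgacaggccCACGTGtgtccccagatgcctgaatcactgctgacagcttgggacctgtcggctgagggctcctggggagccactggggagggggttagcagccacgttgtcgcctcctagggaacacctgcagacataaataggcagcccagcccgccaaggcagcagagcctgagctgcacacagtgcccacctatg
The Oxt window held TGACC 5 times, 4 times on the strand of the gene and 1 time on the other, and the adjoining pair began 166 and 160 bases before the start. The Avp window held CACGTG 1 time, 139 bases before the start. Across 32851 promoter windows of 300 bases, 40.48% held TGACC at least 1 time and 7.15% held CACGTG at least 1 time, on either strand. The share that held TGACC 5 times was not counted. The cyclic AMP response element TGACGTCA, held by 1.79% of windows, and the TATA box letters TATAAA, held by 13.62%, were in neither. No match of a motif overlapped a match of another. The letters describe the windows and say nothing about which factor acted in these cells.

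Trh encodes the precursor of TRH, which holds several copies of the peptide, and lies on chromosome 6 from 92242061 to 92244648 on the minus strand in the deposited annotation. Its RMA values were 6.55, 6.63 and 6.85 in shock, against 6.82, 7.69 and 6.90 in female. Female replicate 2 was the highest of all 6 arrays, and shock replicate 3 lay above female replicate 1. The means were 6.68 ± 0.16 in shock and 7.14 ± 0.48 in female (SD, n = 3), a log2 difference of -0.46 (SE 0.21, limma adjusted p = 0.126). Without female replicate 2 it was -0.18 (adjusted p = 0.243), and without female replicate 1 it was -0.61 (adjusted p = 0.0495). On MAS5 values the intensity was 143, 134 and 84.4 in shock and 130.1, 147 and 111 in female, a difference of -0.11 on log2(MAS5 + 16) with an adjusted p of 0.760.

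Grp, the precursor of gastrin-releasing peptide, had even RMA values of 9.51, 9.50 and 9.47 in shock, against 9.60, 8.33 and 9.38 in female. Female replicate 2 lay 1.16 below the mean of the other female arrays, which were close to the shock arrays. The means were 9.50 ± 0.02 in shock and 9.11 ± 0.68 in female (SD, n = 3), a log2 difference of 0.39 with a limma adjusted p of 0.293. Without female replicate 2 the difference was 0.0019 with a 95% confidence interval from -0.21 to 0.22. On MAS5 values shock replicate 1 was the lowest, with intensities of 372, 801 and 815 in shock against 948, 436 and 772 in female, and the difference on log2(MAS5 + 16) was -0.13 (adjusted p = 0.851).

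Oxtr encodes the oxytocin receptor and has 2 tested probe sets. At 1440888_at the RMA values were 8.001, 8.16 and 8.28 in shock, against 8.09, 7.31 and 7.97 in female, with the lowest value on female replicate 2. The means were 8.15 ± 0.14 in shock and 7.79 ± 0.42 in female (SD, n = 3), a log2 difference of 0.36 with a 95% confidence interval from -0.06 to 0.77 and a limma adjusted p of 0.180. Without female replicate 2 the difference was 0.12 (adjusted p = 0.461).

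The second Oxtr probe set, 1426000_at, had RMA values of 7.65, 7.99 and 7.96 in shock, against 8.07, 7.44 and 8.003 in female. The groups overlapped, with a log2 difference of 0.03, a 95% confidence interval from -0.35 to 0.41 and a limma adjusted p of 0.911. The MAS5 intensity at 1440888_at was 292, 265 and 239 in shock, against 325.0, 229 and 329 in female, and at 1426000_at it was 142, 212 and 151 in shock, against 179, 118.5 and 85.0 in female. On log2(MAS5 + 16) the probe sets gave -0.13 and 0.39 (adjusted p of 0.676 and 0.368), so that the first had the opposite sign in the other processing. The intervals leave room for a change of Oxtr in either direction, and the data do not show that its level was equal in the groups.

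The 2 vasopressin receptor genes were dim. Avpr1a encodes the receptor that carries most vasopressin signalling in the forebrain, and Avpr1b the receptor best known from the pituitary and the CA2 field of the hippocampus. The mean RMA value of the brighter Avpr1a probe set, 1418603_at, lay at percentile 23.3 of all probe sets and that of Avpr1b at percentile 25.6, below the limit for testing.

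At 1418603_at Avpr1a was at 5.28, 5.26 and 5.17 in shock, against 4.88, 5.08 and 5.14 in female (RMA, log2). The shock arrays lay above the female arrays by a mean of 0.20. On RMA values 48.7% of tested genes had the groups apart in either direction. The MAS5 intensities of 1418603_at overlapped, at 53.2, 46.3 and 50.1 in shock and 33.9, 74.5 and 47.1 in female. The other Avpr1a probe set, 1418604_at, was at 4.55, 4.50 and 4.78 in shock, against 4.78, 4.56 and 4.80 in female, a difference of -0.10. Its MAS5 intensities were all lower in shock, at 19.1, 22.6 and 20.5, against 26.7, 59.3 and 29.0 in female. On MAS5 values 31.1% of tested genes had the groups apart in either direction. The probe sets of this dim gene thus did not give a single direction. When all 45037 probe sets were tested, the adjusted p of 1418603_at was 0.217 and that of 1418604_at 0.593.

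Avpr1b was at 5.44, 5.20 and 5.46 in shock, against 5.32, 5.33 and 5.19 in female (RMA, log2), and the groups overlapped. Its difference was 0.09, and the limma adjusted p was 0.612 when all probe sets were tested. Its MAS5 intensity was 10.5, 5.12 and 23.5 in shock and 6.70, 5.62 and 4.49 in female.

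Grpr, the receptor for gastrin-releasing peptide, lay far below the limit for testing. At 1450260_at its RMA values were 3.88, 3.70 and 4.30 in shock, against 4.14, 3.87 and 4.14 in female, at percentile 10.5 of all probe sets. At 1421470_at they were 3.86, 3.97 and 3.82 in shock, against 3.69, 3.55 and 3.86 in female. Their MAS5 intensities were 25.7, 28.9 and 46.4 in shock against 51.1, 14.05 and 56.5 in female at the brighter one, and 13.6, 12.3 and 12.6 in shock against 47.6, 20.9 and 8.28 in female at the other. The groups overlapped at both and in both processings, with differences of -0.09 and 0.18 and limma adjusted p of 0.738 and 0.288 when all probe sets were tested. At this signal a change of Grpr was not detectable, which does not show that the receptor was absent.

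Trhr, which encodes the TRH receptor, was the member called higher in shock, by the brighter of its 2 tested probe sets. At 1449571_at its RMA values were 8.47, 8.43 and 8.42 in shock replicates 1, 2 and 3, against 7.99, 7.82 and 8.004 in female replicates 1, 2 and 3. All shock arrays lay above all female arrays, and the shock arrays lay within a narrow range. On RMA values 48.7% of tested genes had the groups apart in one direction or the other. The means were 8.44 ± 0.03 in shock and 7.94 ± 0.10 in female (SD, n = 3), a log2 difference of 0.50 (SE 0.10, 95% confidence interval from 0.28 to 0.72, limma adjusted p = 0.0127). This is a 1.42-fold higher level in shock.

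The MAS5 intensity of this probe set was 553, 526 and 601 in shock, against 517, 468 and 461 in female. The groups did not overlap here either, as in 31.1% of tested genes, but the difference on log2(MAS5 + 16) was 0.21 (SE 0.13, limma adjusted p = 0.373). In the authors' deposited tables the fold of Trhr was -1.35 (FDR 0.127) on RMA values and -1.20 (FDR 0.384) on MAS5 values, the minus sign standing for a higher shock level. With 1 array left out the RMA difference lay between 0.44 and 0.53 and was called in 4 of 6 fits, with adjusted p of 0.0698 without shock replicate 1 and 0.0509 without shock replicate 3.

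The second Trhr probe set, 1449572_at, did not show the difference. Its RMA values were 7.27, 7.47 and 7.43 in shock, against 7.46, 7.63 and 7.49 in female, with overlap between the groups. Its MAS5 intensity was 221, 234 and 229 in shock, against 206, 264 and 223 in female, where the groups overlapped too. The RMA difference was -0.14 with a 95% confidence interval from -0.37 to 0.10 and a limma adjusted p of 0.350, so the interval lies wholly below that of 1449571_at. With the mean of both probe sets as the value of the gene, the Trhr difference was 0.18 (adjusted p = 0.105). The deposited annotation gives both probe sets the same span, chromosome 15 from 44196134 to 44235912 on the plus strand, so it does not tell which lies nearer the 3′ end.

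**Figure D2:**
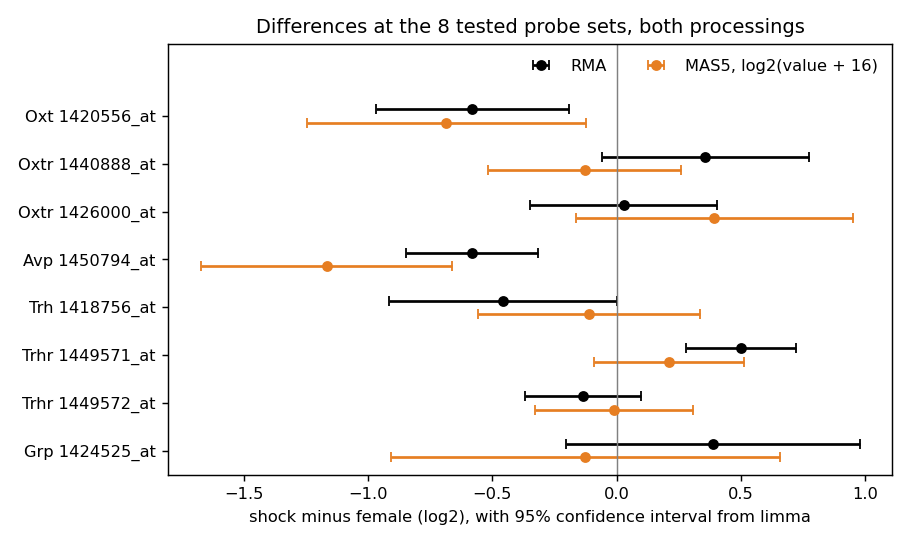
Points show the difference of shock minus female (log2) at the 8 tested probe sets with its 95% confidence interval, for RMA values (black) and for log2(MAS5 + 16) (orange). Avp lies at -0.58 on RMA and -1.17 on MAS5 values with both intervals below 0, and the Trhr probe sets lie at 0.50 and -0.14 on RMA values.

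On RMA values the distance between the probe sets of a gene was larger in shock for both receptors that have 2 tested probe sets, and on MAS5 values this held for Trhr but turned round for Oxtr. At Trhr, 1449571_at exceeded 1449572_at on the same array by 1.20, 0.96 and 0.99 in shock, against 0.53, 0.18 and 0.51 in female (RMA, log2). At Oxtr, 1440888_at exceeded 1426000_at by 0.35, 0.17 and 0.33 in shock, against 0.03, -0.14 and -0.03 in female. In each gene all shock arrays lay above all female arrays, with an exact permutation p of 0.1 (2-sided), the smallest that 3 against 3 arrays can give. On log2(MAS5 + 16) the groups overlapped at both genes. The mean gap was 1.24 in shock and 1.02 in female at Trhr, and 0.63 in shock and 1.15 in female at Oxtr (exact permutation p = 0.3 for each, 2-sided).

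Across the array, the groups were also apart in the signal of 5′ against 3′ probe sets. Over 2647 genes with a tested 5′ and a 3′ probe set, the median of 5′ minus 3′ was -1.02, -0.88 and -0.96 in shock, against -0.76, -0.48 and -0.77 in female (RMA, log2; exact permutation p = 0.1, 2-sided). In the deposited annotation the Oxtr probe set 1440888_at lies at the 3′ end of the gene (chromosome 6 from 112473686 to 112474829, minus strand), and 1426000_at spans 112475889 to 112490890. When that median entered the fit as a covariate, the differences were 0.34 ± 0.14 (SE) at Trhr (1449571_at), -0.50 ± 0.18 at Avp and -0.27 ± 0.25 at Oxt, and none was called (limma adjusted p of 0.383, 0.336 and 0.738). It had a squared correlation of 0.661 with the group, and the effects of both cannot be told apart in full. Among 6182 genes with at least 2 tested probe sets, the brightest pair differed in sign in 44.3%.

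**Figure D3:**
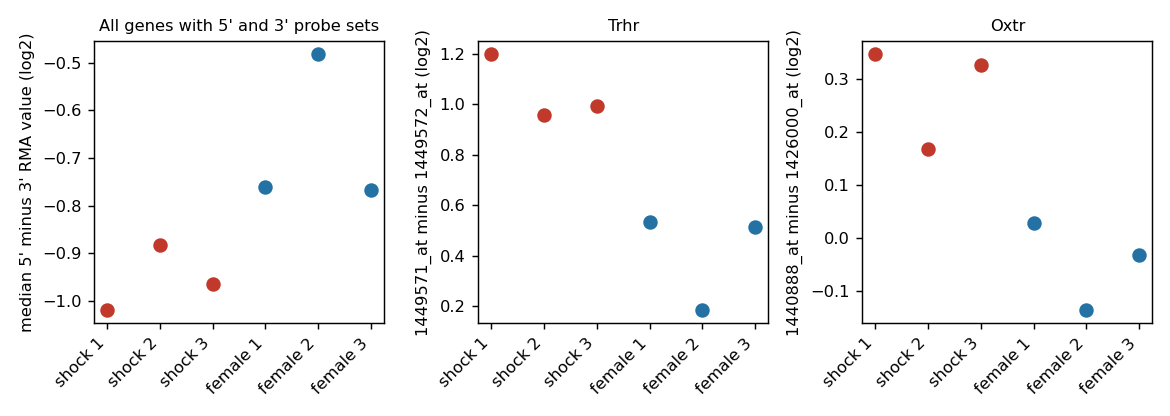
Points show for each array (shock red, female blue; log2 RMA units) the median of 5′ minus 3′ probe sets over 2647 genes, the gap between the Trhr probe sets and the gap between the Oxtr probe sets. The Trhr gap is 0.96 to 1.20 in shock and 0.18 to 0.53 in female, and female replicate 2 is at the end of each panel.

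**Figure D4:**
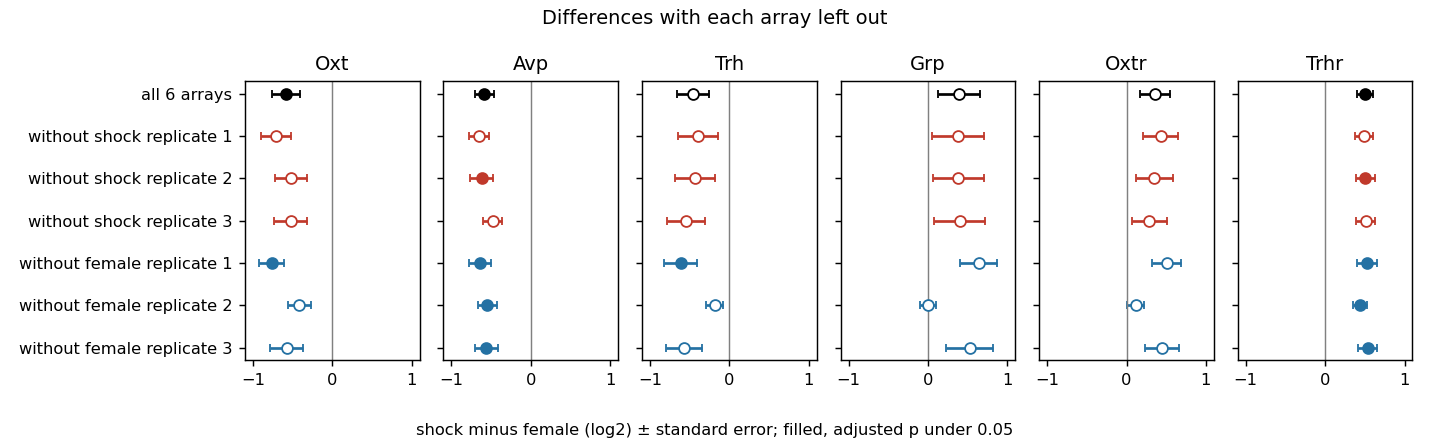
Each panel shows the shock minus female difference (log2, RMA) of 1 gene with its standard error for all 6 arrays and with each array left out, filled where the limma adjusted p is under 0.05. Avp and Trhr keep their size, from -0.65 to -0.48 and from 0.44 to 0.53, whereas Grp runs from 0.0019 without female replicate 2 to 0.64 without female replicate 1.

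Female replicate 2 departed from the other female arrays in both directions. Relative to the mean of the other female arrays it was higher by 0.82 at Trh and 0.50 at Oxt, and Oxtr stood at -0.72 (1440888_at) and -0.59 (1426000_at) and Grp at -1.16. At Avp it was 0.11 and at Trhr (1449571_at) -0.18 from them. What sets this array apart was not tested.

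Genes with a profile close to a member over the 6 arrays were found among 11537 tested genes by Pearson correlation, which here describes 6 points that share the group difference and female replicate 2. The closest to Avp were Nacad (r = 0.992), the tropomyosin gene Tpm2 (0.990) and the phosphatase subunit gene Ppp4c (0.988), of which Nacad and Ppp4c were themselves called lower in shock, at -0.44 and -0.90. The closest to Oxt were the transporter gene Slc12a9 (0.996), the selenoprotein gene Sepn1 (0.994) and Rrp1b (0.994), none of them called. The closest to Trhr were Ptpn3 (0.998), Arap2 (0.998) and Bloc1s5 (0.997), and Ptpn3 and Bloc1s5 were called higher in shock, at 0.43 and 0.44. The closest to Oxtr were the angiotensin-related receptor gene Mas1 (0.999), the phosphodiesterase gene Pde4d (0.999) and Mfhas1 (0.998). The closest to Grp were Thap11 (0.998), the adenylate kinase gene Ak4 (0.998) and Smcr7l (0.994), and the closest to Trh were Prkcdbp (0.996), Rabggta (0.992) and Zfp768 (0.991), none of these 9 genes called. These correlations say nothing of shared function.

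The genes that make, release and degrade such peptides went in both directions. Of 53 tested genes in 5 lists of peptide processing, breakdown, relatives, receptor signalling and transcription factors, 5 were called higher and 6 lower in shock, or 20.8% in all, against 20.0% of all tested genes. Their median difference was 0.09, against 0.06 for all tested genes. Of 12 tested genes of precursor processing and dense-core vesicles, 1 was higher and 1 lower. Pcsk1n, which encodes proSAAS, an inhibitor of the prohormone convertase PC1/3, averaged 10.59 ± 0.26 in shock and 11.63 ± 0.12 in female (RMA, log2, SD, n = 3), or -1.04 as a difference (limma adjusted p = 0.00465). Cadps2, which encodes a factor for vesicle release that oxytocin neurons of mice use, was higher in shock by 0.48 (adjusted p = 0.0427). Chga, a granin, was at -0.36 and Cadps, the related release factor, at 0.35, neither called (adjusted p of 0.0627 and 0.0662).

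Of 11 tested genes of peptide breakdown and of pyroglutamate formation, 2 were lower in shock and none was higher. That is 18.2% called, against 20.0% of all tested genes. Thop1, an oligopeptidase, was at -0.40 (adjusted p = 0.0294) and Ece2, an endothelin-converting enzyme, at -0.36 (adjusted p = 0.0399). Qpct, the cyclase that makes the pyroglutamate end of TRH, was at 0.63 with a limma adjusted p of 0.0531, and Ece1 was at -0.28 (0.0720), with another of its probe sets called at -0.52 (0.0212). Trhde, the ectoenzyme that degrades TRH, was named after its value was seen and stood at 0.57 with an adjusted p of 0.0903. Of the related ligands and receptors, 3 were tested and none called. Nmb, the bombesin-like peptide neuromedin B, was at 0.28 (adjusted p = 0.121), its receptor gene Nmbr at 0.07 and Trhr2, another TRH receptor of rodents, at -0.14.

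Of 19 tested genes of Gq/11 signalling, the cascade that the receptors use, 3 were higher and 3 lower in shock, or 31.6% called, against 20.0% of all tested genes (10.6% higher and 9.40% lower). Prkce, a protein kinase C, was at -0.55 (adjusted p = 0.00946), while its other tested probe sets were at 0.31 and -0.31 and not called. Rgs4 and Rgs2, which shorten Gq signals, were higher by 0.43 and 0.34 (adjusted p of 0.0362 and 0.0427). However, Rgs4 had other probe sets at -0.18 and -0.32, and Rgs2 at -0.13 and 0.27, none of them called. Arrb1, a beta-arrestin that uncouples receptors, was at -0.37 (adjusted p = 0.0462). The other called genes, named after their values were seen, were Plcb2, a phospholipase C, at -0.39 and Gnaq, the alpha subunit of Gq, at 0.48 (adjusted p of 0.0471 and 0.0493).

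Of 8 tested genes for transcription factors of hypothalamic peptide neurons, 1 was called, or 12.5%, against 20.0% of all tested genes. Nr3c1, the glucocorticoid receptor, was higher in shock by 0.49 (limma adjusted p = 0.0235) at its brightest probe set and by 0.43 (0.0480) at another, but lower at yet another, at -0.49 (0.0265). Its remaining tested probe sets were at -0.30 and -0.15, neither called. Arnt2 was at 0.36 (adjusted p = 0.0771), with other probe sets at -0.51 (0.0262) and -0.09 (0.553). Creb1 was at 0.20 (0.152), with other probe sets at 0.33, -0.22, -0.21 and -0.22, none of them called. Otp was at -0.21 (0.153).

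**Figure D5:**
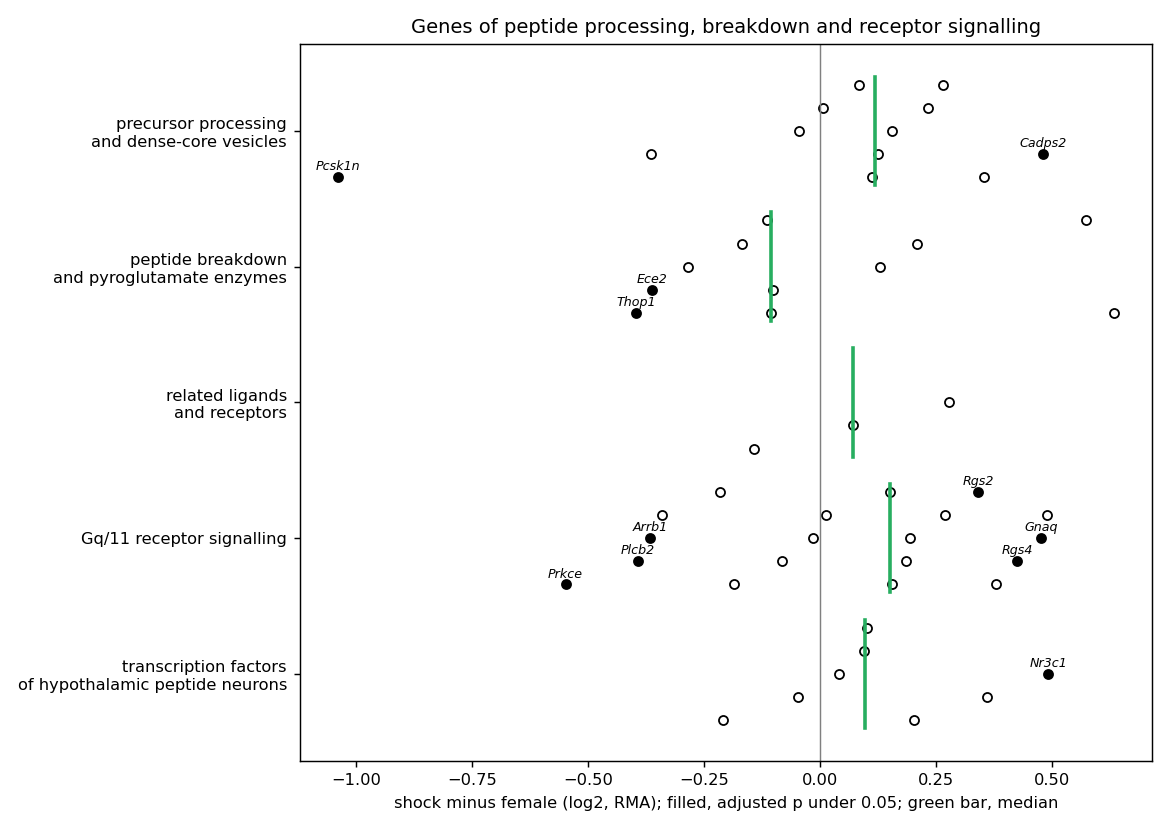
Points show the shock minus female difference (log2, RMA) of the tested genes in each list, filled and named where the limma adjusted p is under 0.05, with the median as a green bar. Called genes lie on both sides of 0, from Pcsk1n at -1.04 to Nr3c1 at 0.49, and each median lies between -0.11 and 0.15.

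Markers of cell types that could carry these transcripts were read beside the members. Of 9 hypothalamic marker genes 6 were tested and none was called. Their summed MAS5 intensity was 2521 to 3381 in shock and 1622 to 3370 in female, so the ranges overlapped. Sim1, a transcription factor that hypothalamic oxytocin and vasopressin neurons need, was below the limit for testing at 5.98 in shock and 5.71 in female. Pmch, the melanin-concentrating hormone precursor, was at 10.31 in shock and 9.70 in female and not called (adjusted p = 0.230). Of the other tested ones, Hcrt and Cartpt were at 0.37 and 0.12, and Gal, Otp and Nkx2-1 at -0.45, -0.21 and -0.13. Among those below the limit, Pomc was at 5.75 in shock and 6.37 in female, and Agrp at 5.82 and 5.91. The markers thus went in both directions, and bright genes such as Pmch weigh most in the sum. Of 6 markers of the central amygdala 3 were higher in shock (Crh at 0.67, Calcrl at 0.85 and Nts at 0.84), against 10.6% of all tested genes. The others were not called, with Prkcd at -1.03 (adjusted p = 0.0598), Tac2 at 0.32 and Cyp26b1 at 0.02. The summed intensity of the 6 markers was 2880 to 3964 in shock and 2334 to 3336 in female, so the ranges overlapped. Among markers of excitatory projection neurons 1 of 6 was higher in shock and 3 lower, with sums of 9850 to 10752 in shock and 12875 to 13671 in female. For this list and those that follow, the shares over all tested genes were 10.6% higher and 9.40% lower. Oligodendrocyte markers were lower in 2 of 7, with sums of 27904 to 31016 in shock and 34051 to 42928 in female. Microglial markers were lower in 2 of 5 tested and endothelial markers in 2 of 3 tested, and no marker of either was higher. None of 5 astrocyte markers was called, and the sums of these 3 lists overlapped. Of 3 tested striatal markers Gpr6 was called higher at 0.44, and Adora2a and Rgs9 were at -0.66 and -0.53, not called. The part of these cell types in the differences of Oxt, Avp and Trhr was not tested.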

How the data were processed

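For the same 6 arrays the authors deposited both RMA signals (log2) and linear MAS5 intensity values, per the submitters' processing notes and the sample titles. Software and the MAS5 scaling target are not named in the labels or headers. They also deposited a table for each processing with bi-weight group averages (log2), standard deviations and a signed linear fold change (a score, negative where shock is higher), and with an ANOVA p-value and FDR p-value, per the file headers. Gene symbols and positions come from these tables, which name no build. The 12 deposited samples are 3 shock and 3 female arrays in 2 processings, and 64 control probe sets were set apart. The number of arrays limits the precision of every value.

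Shock minus female was fitted on RMA values, with no term besides group, in limma 3.58.1 (lmFit and eBayes) with R 4.3.3, on the 27022 probe sets with a mean above the 40th percentile (6.31). P-values are 2-sided and Benjamini-Hochberg adjusted over all of these, with a threshold of 0.05. The brightest probe set by mean stood for a gene (an _x_at one only where there was no other). MAS5 values entered as log2(value + 16), which understates changes of dim probe sets. The 5′ to 3′ signal uses genes whose outermost tested probe sets end 500 to 20000 bases apart. Named are all members, up to 4 genes of each list with the smallest p, and the 3 genes closest in profile to each tested member, without predicted or clone names. The members and lists were chosen with earlier results of these data known.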

Additional observations from a re-analysis of the deposited data

How the results depend on the processing

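Against 3 genes of these systems, 5614 probe sets and 11 genes of the wider lists called, MAS5 values as log2(value + 16) gave 1, 543 and 2, MAS5 values as log2(value + 1) gave 0, 277 and 2, and a fit with the 5′ to 3′ median as covariate gave 0, 1 and 0. Array weights gave 3, 8752 and 18, and with dim probe sets kept in 5 list genes were called. With 1 array left out the counts ran from 0 to 4, from 321 to 6756 and from 1 to 16. No gene of these systems was called without shock replicate 1 or without shock replicate 3, and 4 were called without female replicate 1. The sign turned at Grp and Oxtr on MAS5 values (-0.13 for both genes with either pseudocount) and with the covariate (-0.60 and -0.22), and at Trh with the covariate (0.26). Oxt, Avp and Trhr kept their sign in all alternatives. Deviations from the group means correlated between shock and female arrays of the same number at 0.012, 0.21 and 0.15 for numbers 1, 2 and 3. The highest correlation of each shock array with a female array of another number was 0.065, -0.13 and 0.12. Whether the numbers pair the arrays is not settled by these values. With the replicate block 3 genes of these systems, 7120 probe sets and 16 list genes were called. The cause of these changes was not tested. Median centring, a trend with a robust prior, the filter at the 60th percentile and other representative probe sets kept all of these counts within 1.5 times. At the dim signal of Avpr1a, Avpr1b and Grpr no change was detectable.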

Other observations

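Across the 6 arrays some pairs of members ran together and others in opposite directions, which is a description of 6 points that share the group difference and female replicate 2. Oxtr and Grp ran together (Pearson r = 0.94), as did Oxt and Avp (r = 0.89), and Trhr ran against Avp (r = -0.91) and Trh against Grp (r = -0.95). Of the 4 peptide genes, Oxt, Avp and Trh were at -0.58, -0.58 and -0.46 in shock minus female and Grp at 0.39, and the tested receptor genes Oxtr and Trhr were at 0.36 and 0.50. Trh, Grp and Oxtr were not called, and without female replicate 2 they were at -0.18, 0.0019 and 0.12. The other probe set of Trhr was at -0.14, so these signs make no pattern of ligands against receptors that holds across arrays and probe sets. The gap at Avp was 2.46-fold between arithmetic means of MAS5 intensity, at 103 in shock and 253 in female. The 1.5-fold on RMA values comes from a difference of log2 means, so the measures are not the same. The median MAS5 intensity over all probe sets was 148 to 158 on shock arrays and 164 to 194 on female arrays. The part of this in the Avp gap was not tested.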
